A study of Mus musculus with 44 samples.

Results

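The Fos and Jun genes encode the proteins of AP-1, a transcription factor that binds DNA as a pair of basic leucine zipper (bZIP) proteins. The 6 members measured here were Fos, Fosb and Fosl2 of the Fos subfamily and Jun, Junb and Jund of the Jun subfamily, found by matching the RefSeq identifiers of the deposited gene tables to these symbols. They were 6 of 17158 genes listed in the series. All 6 were listed in most libraries, with Fosb missing from the embryonic hippocampus in every assay, from the RNA-seq of the GFP culture and from the PAL-seq of the adult hippocampus, and Fos missing from the PAL-seq of the embryonic hippocampus.

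As background, Fos proteins cannot pair with one another and bind DNA only with a partner, usually a Jun protein, whereas Jun proteins also pair among themselves. The dimers recognise a short palindrome, and the choice of partner sets how strongly they activate transcription. Fos, Fosb and Junb are immediate-early genes, which neurons transcribe within minutes of activity without needing new protein, and their mRNAs and proteins are short-lived. Jund is instead made steadily in most cells, and Fosl2 is commonly described as a later responder than Fos.

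The mouse samples (C57BL/6J cultures) covered cortical cultures, tissues and the visual cortex. Cortical neurons from pups of postnatal day 0 to 1, pooled from about 5 animals for each culture, were given AraC against dividing cells (5 µM over 24 h) and were grown for 14 days in vitro (DIV14) or 10 days (DIV10). DIV14 cultures were unstimulated, or exposed for 30 min to the neurotrophin BDNF or to glutamate with glycine (glu/gly), or transduced on day 5 with a lentivirus in which the synapsin promoter drove EGFP alone (GFP), or EGFP with miR-1 or miR-155 hairpins in its 3′ UTR. DIV10 cultures were unstimulated or depolarised with KCl for 10 or 30 min. Tissues were hippocampi of embryonic day 16, adult male hippocampus and adult male cortex. The visual cortex came from 8 mice of 6 to 7 weeks kept in the dark for 1 week, of which 4 stayed in the dark and 4 then saw light for 1 h. Cultures and tissues had 1 library for each assay (12 RNA-seq, 10 ribosome profiling and 10 TAIL-seq libraries with settled labels, and 2 PAL-seq libraries of hippocampus), so nothing in them could be tested, and their intervals cover counting error only. The 8 mice were separate animals, measured by PAL-seq.

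Reads or tags on genes numbered 448022 to 7689624 in RNA-seq, 2812215 to 23212489 in ribosome profiling (ribosome-protected fragments, RPFs), 389654 to 1057812 in TAIL-seq and 1233538 to 4812273 in the PAL-seq of the mice. The PAL-seq of the hippocampi held 221876 and 86841 tags. In the cultures, marker genes listed for excitatory neurons (Slc17a7, Camk2a, Neurod6 and Snap25) summed to 480 to 1118 CPM (counts per 1000000 counts on genes). Of these, Snap25 is not limited to excitatory neurons. Astrocyte markers summed to 707 to 1519.8 CPM, while those of oligodendrocytes reached 15.1 and those of microglia 18.5. None of the 4 microglial markers was detected in the miR-155 culture. The cultures thus held astrocyte RNA beside neuronal RNA, and each value for a culture is that of the mixture. In bulk samples such as these, fewer cells of a type and less RNA in each cell cannot be told apart.

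The promoters are shown because 5 of the 6 members rose together after light, as described below, and differ in the letters that lie upstream of their start sites. Each line gives the 100 bases before the RefSeq start on the sense strand of GRCm38.p6, with matches to the motifs named after the sequences in capitals (GC boxes are left in lower case). All 6 members had an entry in the RefSeq promoter table.

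Fos (chr12:85473790-85473889, plus strand): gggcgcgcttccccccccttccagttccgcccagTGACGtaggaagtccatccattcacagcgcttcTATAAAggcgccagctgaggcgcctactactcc

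Fosb (chr7:19310046-19310145, minus strand): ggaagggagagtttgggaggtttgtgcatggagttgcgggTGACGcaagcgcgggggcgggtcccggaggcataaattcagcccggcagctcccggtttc

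Fosl2 (chr5:32136372-32136471, plus strand): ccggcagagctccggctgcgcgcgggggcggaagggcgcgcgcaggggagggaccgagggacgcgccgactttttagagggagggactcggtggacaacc

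Jun (chr4:95052223-95052322, minus strand): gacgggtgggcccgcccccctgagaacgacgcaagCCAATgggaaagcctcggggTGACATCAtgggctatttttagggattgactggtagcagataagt

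Junb (chr8:84978749-84978848, minus strand): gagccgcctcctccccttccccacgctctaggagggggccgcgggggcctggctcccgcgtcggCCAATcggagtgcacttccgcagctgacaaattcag

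Jund (chr8:70697639-70697738, plus strand): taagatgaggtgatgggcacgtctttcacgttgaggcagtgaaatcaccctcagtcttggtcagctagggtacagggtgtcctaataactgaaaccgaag

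The core of the cAMP response element, TGACG, was searched on both strands from 250 bases before to 50 after each start. It lay in 3 members, at −129 and −66 in Fos, at −60 in Fosb and at −106 in Junb, just upstream of the stretch shown, and 20.8% of 32851 mouse promoters of that length held it. The full palindrome TGACGTCA (1.79% of promoters), the AP-1 site TGANTCA (7.81%) and the CArG box bound by SRF (1.63%) matched in none of the 6. Bases more than 250 upstream of a start were not searched, so sites there would be missed. The variant TGACATCA (3.62%) matched in Jun alone, at −45. TATAAA, searched on the sense strand (8.32%), lay at −33 in Fos and at the start of Junb. CCAAT (37.4%) lay at −65 in Jun and at −36 in Junb, and the GC box GGGCGG (35.7%) in Fos, Fosb, Fosl2 and Jun. The Jund window held none of these letters and had a GC content of 46.7%, against 58.7% to 68.3% for the other 5 and a median of 52.7% for all promoters. These matches describe the letters of one annotated start for each gene and say nothing of what bound there. The annotated start of Jund opened a 5′ UTR of 1463 nt, against 150 nt (Fos) to 951 nt (Jun) in the other 5. Whether that start is the one in use in these samples was not tested.

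The gene bodies also split by subfamily. Jun, Junb and Jund each had a single exon, as 3.20% of 16888 annotated transcripts did, whereas Fos, Fosb and Fosl2 each had 4. The pentamer ATTTA, the core of AU-rich elements of unstable mRNAs, occurred 4.90 times per kb in the 3′ UTR of Fos, 4.12 in Junb and 3.25 in Jun, against a median of 1.16 over all transcripts. Jund had 1.88 per kb, Fosl2 1.72 and Fosb 0.47. By number Fosl2 held the most of the family, 8 in a 3′ UTR of 4651 nt, against 4 in Fos and a median of 1 over all transcripts.

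Which members respond to a sensory stimulus in the brain was addressed in the visual cortex. After 1 h of light, 5 of the 6 members rose and none fell. Fosb and Fos rose most, Fosl2 and Junb followed, Jund rose slightly, and Jun did not pass the test. Among all 9554 genes tested, 1.21% were called higher and 0.126% lower (edgeR's quasi-likelihood test, Benjamini-Hochberg adjusted p under 0.05 over all genes). The median log2 change of all genes was −0.0047. Values below are tags in CPM, where 1 tag is one mRNA 3′ end. The share of all genes whose dark and light mice do not overlap was not counted, so separation is given only as a description of each member.

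Fos, the founding partner of Jun proteins in AP-1, stood at 8.21, 19.1, 54.6 and 152 CPM in the 4 dark mice and at 852, 990.2, 713 and 470.0 in the 4 light mice. The lowest light mouse lay well above the highest dark mouse, and the dark mice differed from one another by 18.5-fold. The log2 change was 3.91 (SE 0.42, adjusted p = 1.42e-06 by edgeR).

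Fosb, which also gives rise to the long-lived splice form ΔFosB of chronic stimulation, was the rarest member in the dark. It had 2.05, 5.40, 7.03 and 12.1 CPM in the dark mice and 105, 169, 194 and 85.6 in the light mice. The groups did not overlap, and its log2 change of 4.52 (SE 0.30, adjusted p = 7.46e-10 by edgeR) was the highest of the family. It rested on few dark tags, 3 to 26 in each mouse.

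Fosl2, which encodes the Fos-related protein Fra-2, had 45.8, 33.9, 22.6 and 22.5 CPM in the dark and 175, 306, 398 and 227 in the light. All 4 light mice were higher than all dark mice, and the dark mice ran the other way from those of Fos, with the highest Fosl2 level in the mouse with the lowest Fos. The log2 change was 3.14 (SE 0.22, adjusted p = 1.15e-09 by edgeR).

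Junb, a Jun protein that activates less strongly than Jun at many sites, had 31.5, 88.3, 168 and 431 CPM in the dark and 1196, 1111, 620.5 and 536 in the light. The fourth dark mouse came close to the lowest light mouse without overlap. The log2 change was 2.36 (SE 0.41, adjusted p = 0.001 by edgeR), and DESeq2 gave a change of 2.30 with an adjusted p of 0.174.

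Jund, the constitutive member, had 354, 431, 540.2 and 494 CPM in the dark and 610.4, 584, 693 and 641 in the light. The groups were close but separate, with a log2 change of 0.50 (SE 0.11, adjusted p = 0.0104 by edgeR). Without the third light mouse the adjusted p was 0.0725 (log2 change 0.46). Jun had 101, 117, 155 and 169.9 CPM in the dark and 253, 276, 179 and 125 in the light. Its groups overlapped through the fourth light mouse, and the log2 change of 0.66 (SE 0.19) had an adjusted p of 0.0999 by edgeR, or 0.00208 without that mouse (log2 change 0.85).

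**Figure D1:**
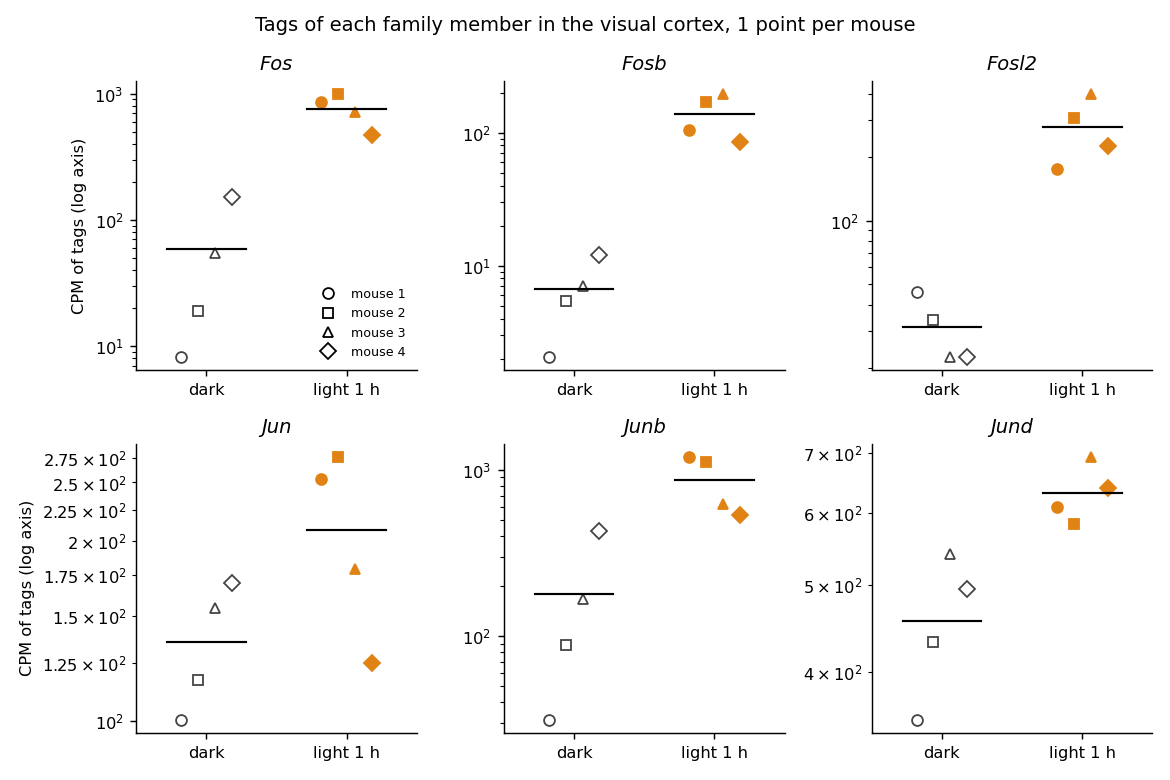
Tags of each of the 6 genes in CPM in the visual cortex (log axes that differ between panels), in 4 dark mice (open) and 4 mice after 1 h of light (filled), with mouse numbers, which pair no mice, by symbol and the group mean as a bar. The groups overlap for Jun, and the dark mice span 18.5-fold for Fos and 13.7-fold for Junb.

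The spread of the dark mice differed in size between members. From the lowest to the highest dark mouse, Fos differed by 18.5-fold and Junb by 13.7-fold, with Fosb at 5.89-fold. Fosl2 differed by 2.03-fold, Jun by 1.69-fold and Jund by 1.53-fold. In the light mice the same ratio was 1.19 for Jund and 2.11 to 2.27 for the other 5. The order of the dark mice was shared by Fos, Fosb, Jun and Junb, each of which rose step by step from the first dark mouse to the fourth. Among cell type markers, none of the tested genes of excitatory neurons (4 of 4 listed), inhibitory neurons (3 of 3), astrocytes (4 of 4), oligodendrocytes (4 of 4), microglia (4 of 4) or endothelium (1 of 3) passed the edgeR test after light, and 2 oligodendrocyte markers and 1 astrocyte marker were lower at an unadjusted p under 0.05. Summed oligodendrocyte markers ran from 589 to 942 CPM in the dark and from 381 to 708 in the light, and summed astrocyte markers from 382 to 495 and from 274 to 421, and their part in the results was not tested.

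Because each tag is one mRNA end, the members could be set against each other within a mouse without a length correction. Together they made up 866 ± 323 CPM in the dark and 2877 ± 590.3 in the light (SD, n = 4 mice each), a 3.32-fold higher pool (two-sided exact permutation p = 0.0286, the smallest that 4 against 4 allow). The Fos subfamily supplied 10.6% ± 2.80 of the pool in the dark and 40.6% ± 5.05 in the light.

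In the dark, Jund alone made up 65.3%, 62.1%, 57.0% and 38.6% of the pool in the 4 mice, and after light 19.1%, 17.0%, 24.8% and 30.7%. These did not overlap, and the mean was 55.7% before and 22.9% after (exact permutation p = 0.0286). The share of Fos was 1.52%, 2.75%, 5.77% and 11.9% in the dark and 26.7%, 28.8%, 25.5% and 22.6% in the light (exact permutation p = 0.0286). On average the pool thus went from one led by Jund to one shared about evenly by Junb, Fos and Jund.

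The other members moved less. Jun dropped from a mean share of 16.2% to 7.09% (exact permutation p = 0.0286) while its level did not pass the test, and Fosb went from 0.71% to 4.81% (exact permutation p = 0.0286). Junb had mean shares of 17.5% and 29.4% with overlapping mice (exact permutation p = 0.143), and Fosl2 4.37% and 9.88%, also overlapping (exact permutation p = 0.0571). Each of the 6 shares was tested once by the exact permutation test, and the p-values given above are unadjusted. Adjusted by Benjamini-Hochberg over the 6 members, the exact permutation p was 0.0429 for Fos, Fosb, Jun and Jund, 0.0686 for Fosl2 and 0.143 for Junb. The shares sum to 100 in each mouse, so they are not independent of each other. Within the Fos or the Jun subfamily alone, the shares of Fos (exact permutation p = 0.371), Fosb (0.0571) and Jund (0.0857) no longer separated dark from light, and that of Junb did (0.0286).

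**Figure D2:**
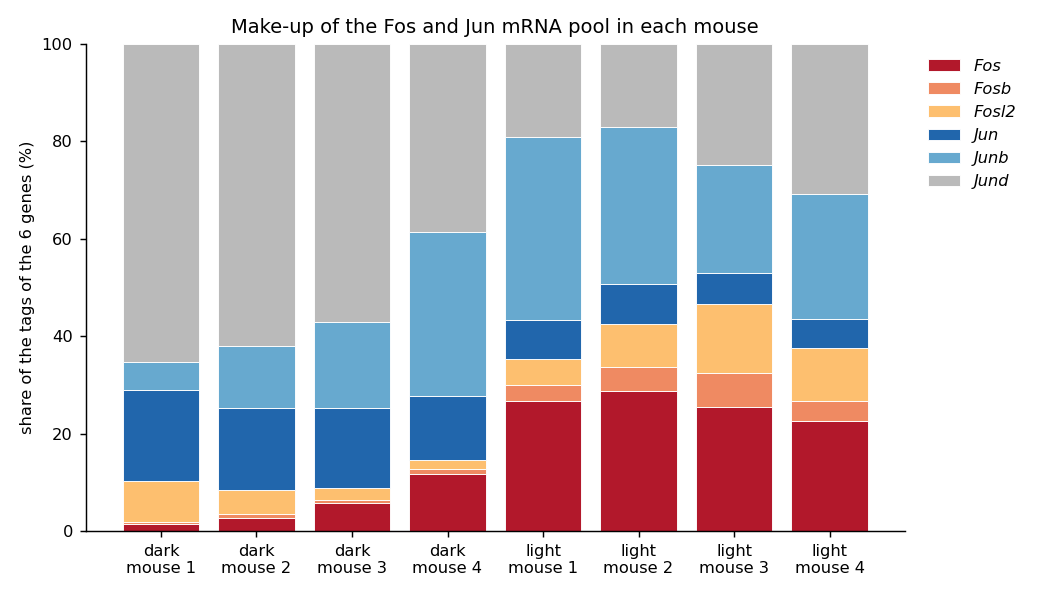
Share of each gene in the summed tags of the 6 genes (%, stacked bars from 0 to 100) in each of the 4 dark and 4 light mice. Jund makes up 38.6% to 65.3% of the pool in the dark mice and 17.0% to 30.7% in the light mice, while Fos goes from at most 11.9% to at least 22.6%.

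The order of the levels changed accordingly. In the dark, mean CPM was 455 for Jund, 179.6 for Junb, 136 for Jun, 58.5 for Fos, 31.2 for Fosl2 and 6.64 for Fosb. Of the neighbours in that order, the ranges of Jund and Junb overlapped, as did those of Junb and Jun, of Jun and Fos, and of Fos and Fosl2, and only Fosb had a range below that of its neighbour. In the light, the means were 866 for Junb, 756 for Fos, 632 for Jund, 277 for Fosl2, 208 for Jun and 138 for Fosb. The ranges of the upper 3 overlapped one another, as did those of the lower 3, with a gap between Jund and Fosl2.

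Poly(A) tails of the members were measured in the same mice. As background, a tail is added in the nucleus when an mRNA is made and is shortened in the cytoplasm. With at least 50 tags required in every mouse, 4321 genes were tested by limma and 0.231% were called changed. Only Jun and Jund reached that depth in all mice, and 0 of these 2 members was called, with an unadjusted p of 0.0134 for Jund and 0.0777 for Jun. With at least 20 tags, 4 members could be tested and Junb alone was called shorter, against 0.0441% of genes called shorter under the same setting.

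Junb had mean tails of 117, 116, 114 and 122 nt in the dark mice and 70.6, 73.1, 86.7 and 72.5 nt in the light mice. The shortest dark mean lay far above the longest light mean, and the difference was −41.5 nt (SE 7.11, adjusted p = 0.000457 by limma with at least 20 tags). The medians of the tags and the means relative to the median gene of the same mouse were separate in the same way.

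Fos had mean tails of 58.5, 114, 129 and 129 nt in the dark and 74.5, 80.1, 85.3 and 76.1 nt in the light. The first dark mouse rested on 12 tags and lay below every light mouse, whereas the other 3 lay above them all. With all mice the exact permutation p was 0.143, and without the first dark mouse limma gave a difference of −44.7 nt (adjusted p = 4.81e-07).

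Jun had mean tails of 85.0, 90.6, 85.9 and 93.3 nt in the dark and 74.2, 81.1, 81.2 and 71.3 nt in the light, a difference of −11.8 nt (SE 6.68, adjusted p = 0.999 by limma). The means did not overlap (exact permutation p = 0.0286), whereas the medians of the tags did (exact permutation p = 0.0571). Jund went the other way, with 96.1, 91.0, 77.1 and 87.4 nt in the dark and 99.3, 116, 111 and 91.3 nt in the light. That difference was 16.5 nt (SE 6.68, adjusted p = 0.999 by limma) with overlapping means, which separated once the median gene of each mouse was subtracted.

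Fosl2 had longer means in the light, 112, 130.4, 106 and 89.3 nt, than in 3 of the 4 dark mice, which had 80.6, 105, 74.1 and 73.5 nt (26.1 nt, adjusted p = 0.295 by limma with at least 20 tags). Fosb had 78.3, 104, 98.2 and 117 nt in the dark and 91.8, 101, 93.5 and 75.7 nt in the light, which overlapped widely. The 6 exact tests of mean tails were not adjusted for their number. Of the members that rose in tags, Junb thus had shorter tails, Fos had shorter tails only without the first dark mouse, Fosl2 and Jund had longer means short of the test, and Fosb had neither.

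**Figure D3:**
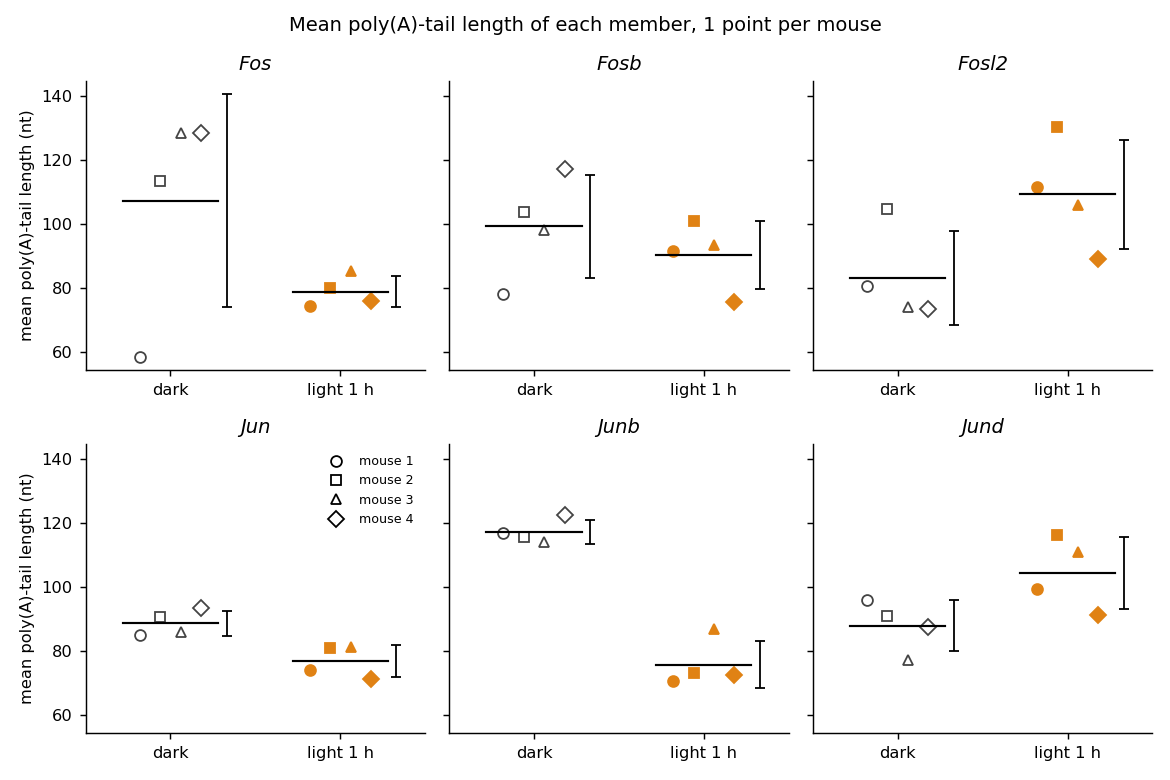
Mean poly(A)-tail length (nt) of each gene in 4 dark (open) and 4 light (filled) mice, with mouse numbers by symbol, the group mean as a bar and ± SD beside it. Junb is shorter in all 4 light mice than in all dark mice (75.7 against 117 nt on average), and the first dark mouse of Fos rests on 12 tags.

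In the cultures, the members were compared after 4 stimuli, by RNA-seq, ribosome profiling and TAIL-seq of the same cultures. BDNF and glu/gly share the unstimulated DIV14 culture as control, and both KCl times share the unstimulated DIV10 culture. A member was called when it was at least 2-fold higher, among genes with at least 20 reads over both libraries, with counts scaled by the reads on genes. On the authors' RPM, which divides by a larger total, the median gene was shifted by a log2 change of −0.12 in the RPFs of BDNF, −0.25 in those of glu/gly and 0.16 in the RNA-seq of 10 min of KCl, and ratios here are relative to the reads on genes instead. The Fosl2 RPF ratios were 0.98 with BDNF and 0.94 with glu/gly on that scale, and the Jun and Fosl2 RNA-seq ratios 0.95 and 0.72 after 30 min of KCl. Counts of each member in the control and the stimulated library are given before the ratio, with its 95% Clopper-Pearson interval.

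In RNA-seq after BDNF, 4 of the 5 members with enough reads were called, against 1.61% of genes. After glu/gly it was 3 of 4, against 3.13%, after 10 min of KCl 2 of 5, against 1.21%, and after 30 min of KCl 3 of 6, against 2.5%. In ribosome profiling, all 6 had enough reads and the members called numbered 4 after BDNF (0.845% of genes), 3 after glu/gly (0.812%), 2 after 10 min of KCl (1.37%) and 4 after 30 min of KCl (1.61%). Fos was among those called in each of these 8 comparisons, while Jund was called in none. Fosl2 was not called in the 6 in which it had enough reads, and in the RNA-seq of BDNF and glu/gly it had too few, as did Fosb in that of glu/gly and of 10 min of KCl.

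Fos had 7 RNA-seq reads in the unstimulated DIV14 culture, 222 with BDNF and 178 with glu/gly. The RNA-seq ratios were 33.6 (interval 16.1 to 84.7) with BDNF and 21.5 (10.2 to 54.3) with glu/gly. In TAIL-seq, where the control had 87 tags, the ratios were 9.99 (8.01 to 12.6) and 7.64 (6.08 to 9.71). The TAIL-seq intervals lay below the RNA-seq interval with BDNF and with glu/gly, so the size of the Fos ratio differed between assays, although its direction did not.

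RPFs of Fos numbered 186 in the control, 4254 with BDNF and 2072 with glu/gly, so that its ribosome-bound reads were 26.8-fold (23.2 to 31.2) and 17.2-fold (14.8 to 20.1) higher. After KCl, RPFs of Fos went from 263 to 336 at 10 min, a ratio of 2.20 (1.86 to 2.59), and to 2857 at 30 min, a ratio of 33.8 (29.8 to 38.5). The RNA-seq ratios at the same times were 3.22 (1.63 to 6.53) and 18.3 (11.0 to 32.6). At 30 min of KCl the median gene lay at a log2 change of −0.56 in RNA-seq on the authors' RPM scale, on which the ratio of Fos was 12.9.

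Fosb was nearly absent at rest, with 2 RNA-seq reads in either unstimulated culture. Its RPFs were better counted, with 73 in the unstimulated DIV14 culture, 369 with BDNF and 407 with glu/gly, ratios of 5.93 (4.602 to 7.73) and 8.60 (6.69 to 11.2). In the DIV10 cultures they went from 18 to 34 at 10 min of KCl and to 305 at 30 min, a ratio of 52.7 (32.8 to 90.1). Unlike those of Fos, Junb and Jun, its RPF ratio was higher with glu/gly than with BDNF. The intervals overlapped, but both hold the counting error of the shared control, so their overlap cannot compare the stimuli. Without the control, Fosb RPFs stood at 99.8 CPM with BDNF and 145 CPM with glu/gly. Fosb RNA-seq ratios ran the other way, 11.1 (2.72 to 98.0) from 21 reads with BDNF and 5.07 (1.13 to 46.7) from 12 reads with glu/gly. Its TAIL-seq ratios were 5.91 (2.90 to 13.6) with BDNF and 6.96 (3.38 to 16.1) with glu/gly, over 9 control tags.

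Junb had 33 RNA-seq reads in the unstimulated DIV14 culture, 284 with BDNF and 153 with glu/gly. The RNA-seq ratios were 9.13 (6.35 to 13.5) and 3.92 (2.68 to 5.90), and the RPF ratios 8.54 (7.69 to 9.504) and 4.31 (3.85 to 4.85). Its response to BDNF exceeded that to glu/gly beyond counting error in both assays. After 30 min of KCl the RPF ratio was 10.5 (9.32 to 11.8), from 356 to 1202 RPFs, and the RNA-seq ratio 7.20 (4.95 to 10.7).

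Jun had 14 RNA-seq reads in the control, 49 with BDNF and 37 with glu/gly. Its RPF ratios were 2.35 (2.10 to 2.63) with BDNF, 1.81 (1.60 to 2.05) with glu/gly, 1.39 (1.27 to 1.52) after 10 min of KCl and 2.28 (2.08 to 2.496) after 30 min. Each of these intervals lay above 1, at a much smaller size than for Fos, Fosb and Junb after 30 min.

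Fosl2, which rose in the light mice at 1 h, had RPF ratios between 1.02 and 1.38 in the stimulated cultures. Its RPFs numbered 260 in the DIV14 control, 227 with BDNF and 180 with glu/gly, and the ratios of 1.02 (0.85 to 1.23) and 1.07 (0.88 to 1.30) included 1. After KCl its RPF ratios were 1.38 (1.21 to 1.57) at 10 min and 1.29 (1.09 to 1.51) at 30 min, where the RNA-seq ratio was 1.011 (0.49 to 2.04). The RNA-seq ratios were 1.95 (0.66 to 6.41) with BDNF and 1.41 (0.46 to 4.72) with glu/gly, over 6 control reads. Tissue, stimulus, method and time all differ between the mice and the cultures, and the difference was not tested.

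Jund was the only member with an RPF ratio below 1 when scaled by the reads on genes. Its RPFs went from 999 in the unstimulated DIV10 culture to 374 at 10 min of KCl and 195 at 30 min, in libraries of unequal size, and the scaled ratios were 0.64 (0.57 to 0.73) and 0.61 (0.52 to 0.71). With glu/gly the ratio was 0.82 (0.71 to 0.95) and with BDNF 1.02 (0.90 to 1.16). The median gene had a log2 change of −0.0507 in RPFs at 10 min of KCl and −0.0286 at 30 min on this scale, or −0.23 and −0.086 on the authors' RPM scale. Jund RNA-seq ratios were 1.16 (0.92 to 1.47) at 10 min and 0.78 (0.62 to 0.99) at 30 min. Summed astrocyte markers stood at 1516 CPM in the unstimulated DIV10 culture, 1519.8 at 10 min and 1428 at 30 min, and at 1403, 1064 and 1154 in the DIV14 control, BDNF and glu/gly cultures.

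**Figure D4:**
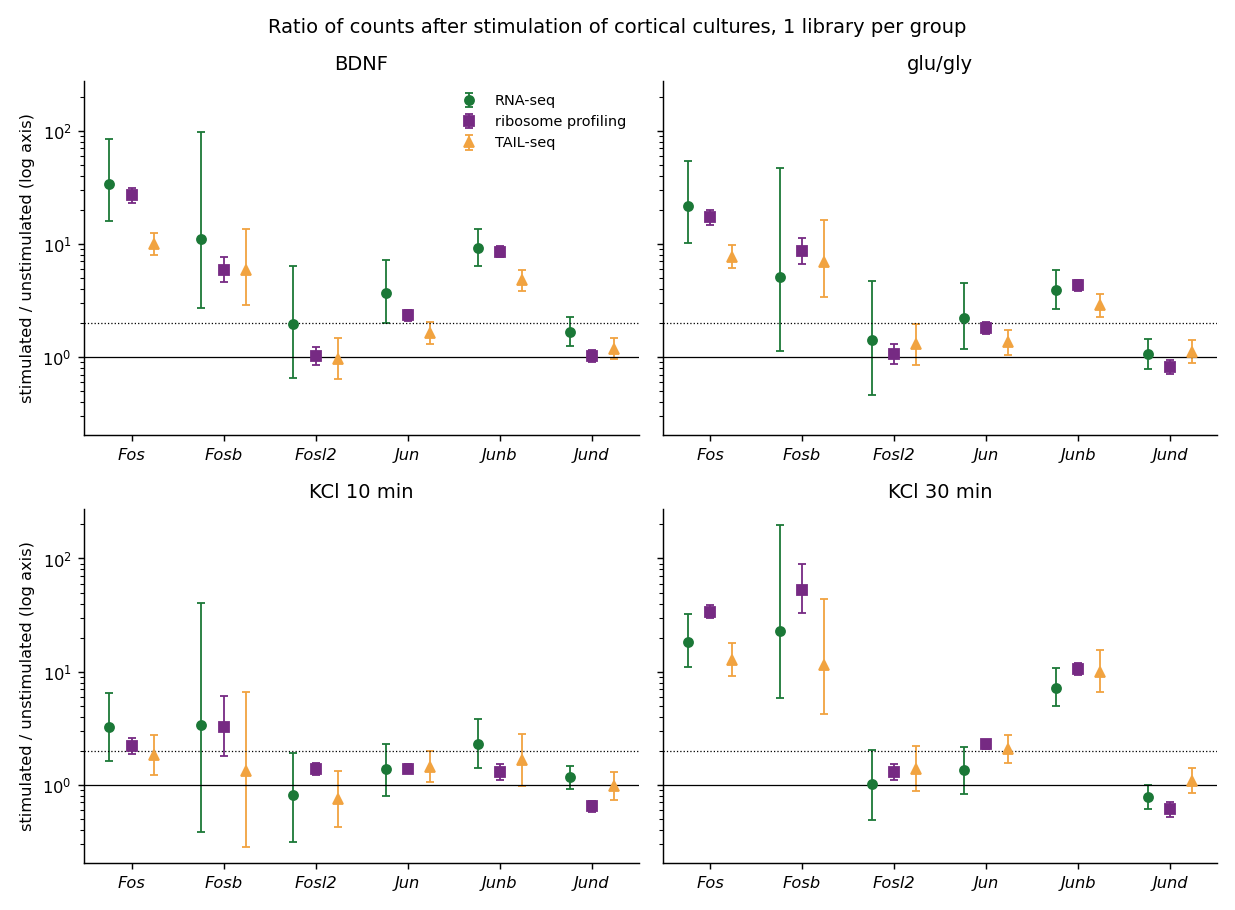
Ratio of counts, stimulated over unstimulated culture, scaled by counts on genes (log axis), for each gene by RNA-seq (circles), ribosome profiling (squares) and TAIL-seq (triangles), with 95% Clopper-Pearson intervals and 1 library for each group. The solid line marks 1 and the dotted line 2. Fos, Fosb and Junb lie highest in the 3 stimulations of 30 min, and Jund lies below 1 in ribosome profiling after KCl.

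The make-up of the pool was also followed in the cultures. By RPKM in RNA-seq, a level per length of the reading frame, Jund supplied 60.7% of the family in the unstimulated DIV14 culture, 21.1% with BDNF and 24.4% with glu/gly, while Fos supplied 3.99%, 27.8% and 32.4%. In the DIV10 cultures, Jund supplied 68.2% at rest, 58.1% at 10 min of KCl and 23.5% at 30 min. The summed RPKM of the 6 genes was 68.0 at rest, 334 with BDNF and 196 with glu/gly. In ribosome profiling, the share of Jund was 30.3% at rest at DIV14 and 33.7% at DIV10, and between 4.27% and 7.24% after 30 min of stimulation.

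Tails of the members were compared in the cultures where both libraries had at least 50 tags, and a member was called when its mean tail was at least 15 nt longer. After BDNF 3 of 4 members were called, against 1.90% of genes, and after glu/gly 2 of 4, against 0.853%. After 10 min of KCl 0 of 2 were called, against 2.12%, and after 30 min 0 of 2, against 3.91%. There was 1 library in each group, so none of this was tested.

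Junb had a mean tail of 114 nt (110 tags) in the unstimulated DIV14 culture, 148 nt (531 tags) with BDNF and 131 nt (242 tags) with glu/gly. Its change of 34.6 nt with BDNF lay at the 99.9th percentile of 4098 genes. Jun went from 117 nt to 144 and 133 nt, and Fos from 119.99 nt to 147 and 130.3 nt. Jund, the least responsive, went from 114 nt to 129 and 119.8 nt. All 4 measured members thus had longer mean tails after either stimulus, with the median gene at −1.04 nt after BDNF and −4.68 nt after glu/gly.

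Fosb and Fosl2 had under 50 tags in the control. Fosb had the longest mean of the family with BDNF, 174 nt over 54 tags, at the 99.98th percentile of genes in that library. In the DIV10 cultures, Fos had 109.95 nt over 40 tags at rest, 130.3 nt at 10 min of KCl and 128 nt at 30 min. Junb had 118 nt over 25 tags at rest, 139 nt over 39 tags and 135 nt over 320 tags. Junb was thus longer-tailed after 30 min of stimulation in culture and shorter-tailed after 1 h of light in the cortex. The methods, tissues and times differ between these, and the difference was not tested.

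Translational efficiency (TE), the RPFs a gene carries relative to its mRNA, was taken as log2 of RPF RPM over RNA-seq RPM, both by the authors. It was read where a gene reached 10 RPM by RNA-seq in a sample and had 1 or more RPFs there. Jund passed in all 10 samples, Junb in 8, Jun in 5, Fos in 4, Fosl2 in 2 and Fosb in none. Fos stood between the 95.4th and the 98.2nd percentile of genes in the samples where it passed, and Jun between the 94.1st and the 98.1st.

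Fos TE was 2.87 (counting interval 2.67 to 3.07) with BDNF, 2.66 with glu/gly, 3.95 after 30 min of KCl and 3.10 in adult cortex, where the medians of all genes were 1.04, 0.91, 1.44 and 1.31. Jun TE was 2.86 with BDNF, 3.01 with glu/gly, 3.06 after 10 min of KCl, 2.13 in adult hippocampus and 1.97 in embryonic hippocampus. Both members carried more RPFs for each RNA-seq read than most genes in every sample in which they passed the cutoff. For Fos these were only samples with enough of its mRNA, the stimulations of 30 min and adult cortex. Below the cutoff, Fos TE in embryonic hippocampus was −4.62 (−10.0 to −1.90), from 14 reads and 1 RPF, against a median of 0.67. In the other samples where Fos missed the cutoff, its TE lay above the median of the sample. Fosl2 TE was 2.09 in adult and 1.499 in embryonic hippocampus, at the 93.5th and 86.0th percentile.

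Junb ranged from the 51.8th percentile after 10 min of KCl to the 96.7th in adult cortex, with a median of 86.5 over 8 samples. Jund was lower, with a median at the 39.8th percentile over 10 samples. It stood at the 17.2nd percentile after 10 min of KCl, the 24.2nd with BDNF and the 82.2nd in adult hippocampus. Its TE changed by −0.80 with BDNF, at the 2.51st percentile of changes of 4705 genes, by −0.68 with glu/gly (16.1st percentile), by −1.21 after 10 min of KCl (9.06th) and by 0.07 after 30 min (32.5th). Junb TE changed by −0.19 with BDNF (39.5th percentile) and −0.17 with glu/gly (64.1st percentile of 4731 genes), so relative to other genes it was not low with glu/gly. Fos failed the 10-RPM cutoff in both unstimulated cultures, so no change of its TE can be given.

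**Figure D5:**
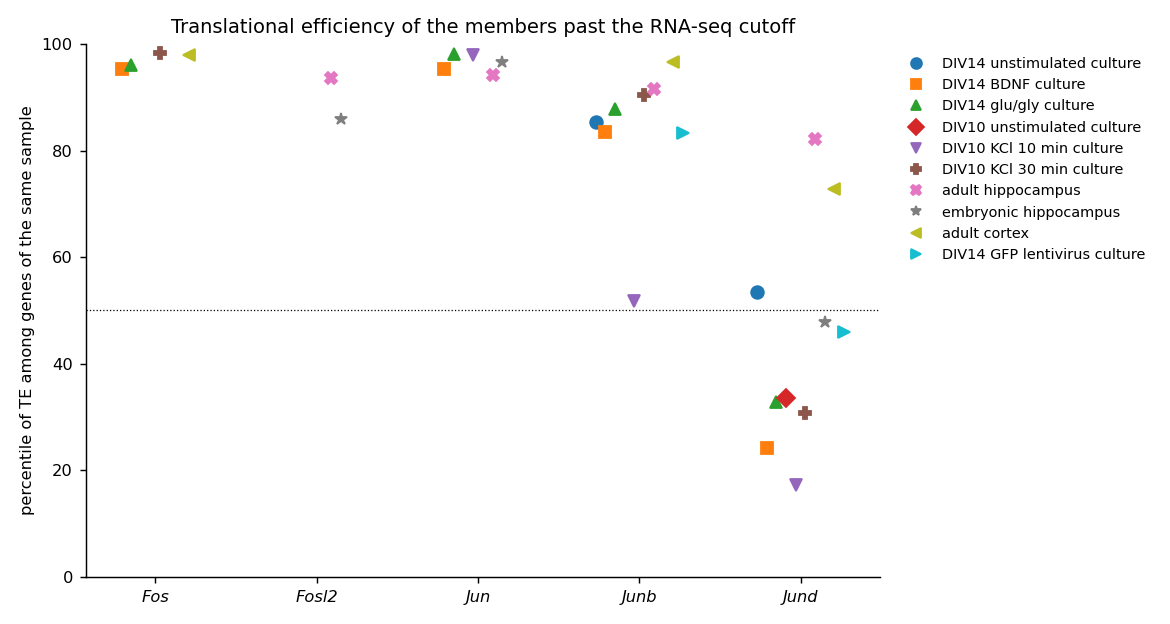
Percentile of the TE of each gene among all genes past the cutoff in the same sample (axis from 0 to 100, dotted line at the median), with 1 symbol for each of the 10 cultures and tissues and Fosb past the cutoff in none. Fos lies at or above the 95.4th percentile, Jun at or above the 94.1st, and Jund spreads from the 17.2nd to the 82.2nd.

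Across all 12 RNA-seq libraries, Jund had the highest RPKM of the family in 9, Fos in 2 (glu/gly and 30 min of KCl) and Junb in 1 (BDNF). RNA-seq levels of Jund ran from 23.0 to 115 RPKM, those of Junb from 3.47 to 132, those of Jun from 2.14 to 33.3, those of Fos from 0.77 to 92.9, those of Fosl2 from 1.73 to 16.8 and those of Fosb from unlisted to 9.93. In fold terms the range of Jund was the narrowest in RNA-seq. In ribosome profiling Jund ran from 41.8 to 193 RPKM, and Fosl2, from 33.8 to 64.7, and Jun, from 52.8 to 171, had narrower ranges. In ribosome profiling, Jund was highest in 5 of 10 libraries, Fos in 3, and Jun and Junb in 1 each.

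In the hippocampus, the members differed between embryo and adult along the same line. In embryonic hippocampus, RNA-seq levels were 115 RPKM for Jund, 32.5 for Jun, 16.8 for Fosl2, 3.47 for Junb and 0.77 for Fos, with Fosb not listed. In adult hippocampus they were 60.4 for Jund, 33.3 for Jun, 33.2 for Junb, 15.2 for Fosl2, 5.29 for Fos and 3.83 for Fosb. Fos, Fosb and Junb thus had the lowest levels of the family in the embryonic tissue. Fos and Fosb were again the lowest in the adult tissue, whereas Junb stood close to Jun there.

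Fos had 14 RNA-seq reads and 1 RPF in the embryo and 114 reads and 980 RPFs in the adult, so that its RNA-seq ratio was 8.60 (4.92 to 16.2) and its RPF ratio 1050.3 with a counting interval from 188 to 41526, which rests on that single RPF. These RPF ratios lay among wide differences between the tissues, at the 90.8th percentile of genes for Fos and the 87.8th for Junb. Junb was 11.9-fold higher (9.09 to 15.9) in RNA-seq and 22.9-fold higher (19.7 to 26.9) in RPFs. Fosb, with no count in the embryo, was at least 25.7-fold higher in the adult by RNA-seq and at least 136-fold by RPFs, against a floor of 3 counts in the embryonic library. Jund was 0.66-fold (0.61 to 0.71) in RNA-seq and 1.12-fold (1.08 to 1.17) in RPFs, and Jun and Fosl2 lay between 1.13 and 1.40. On the authors' RPM, the RNA-seq ratios were 0.90 for Fosl2, 1.03 for Jun and 0.53 for Jund. Adult and embryonic hippocampus also differed in cell type markers. Oligodendrocyte markers summed to 1131 CPM in the adult and 14.0 in the embryo, and excitatory neuron markers to 6897 and 652, and their part in these ratios was not tested.

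In adult cortex, the RNA-seq levels were 38.6 RPKM for Jund, 22.4 for Junb, 9.58 for Fos, 5.63 for Jun, 3.34 for Fosl2 and 1.46 for Fosb. Mean tails there were 92.7 nt for Fos, 98.6 nt for Junb, 99.0 nt for Jun and 103 nt for Jund, around the median of 99.5 nt over 2829 genes. The tail libraries of the hippocampi held 131 tags of the family in the adult and 26 in the embryo, too few for any member to reach 50.

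The miR-155 culture bears on the members through their 3′ UTRs. The mature miRNA is shown with its seed (bases 2 to 8) in capitals, from chr16:84714143-84714165 of GRCm38.p6, followed by the one site among the members that pairs with the whole seed opposite an A, with the 8 matching bases in capitals.

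miR-155-5p: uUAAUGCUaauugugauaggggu

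Fosl2 8mer site: aacagatAGCATTAAagtac

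The 8mer began at base 3751 of the 4651 bases of the Fosl2 3′ UTR, which also held a 6mer. Fos and Jun each held a 6mer, and Fosb, Junb and Jund held no site. In RNA-seq, Fosl2 had 25 reads in the miR-155 culture and 9 in the GFP culture, a ratio of 0.59 (0.27 to 1.44), and in TAIL-seq 16 and 18 tags, a ratio of 0.72 (0.34 to 1.499). Both ratios lay below 1 and both intervals included 1, so a difference was not detectable at this depth. In the miR-1 culture the Fosl2 ratios were 0.36 (0.11 to 1.09) from 7 RNA-seq reads and 1.26 (0.665 to 2.44) in TAIL-seq.

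The GFP control was itself thinly counted. Jun had 5 reads there and 50 with miR-155, a ratio of 2.12 (0.85 to 6.82), and 1.44 (0.88 to 2.41) in TAIL-seq. Junb had 1.83 (1.30 to 2.67) in RNA-seq and 2.44 (1.66 to 3.64) in TAIL-seq with miR-155, and 1.43 (0.97 to 2.14) and 1.91 (1.28 to 2.90) with miR-1. Fos had 1.12 (0.69 to 1.92) in RNA-seq and 2.80 (1.68 to 4.86) in TAIL-seq with miR-155. The assays differed for Fos by more than 2-fold, and these cultures share 1 GFP control.

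Other genes of the pathway were read from the same light test, in which 1.21% of all genes rose and 0.126% fell. Of 19 other bZIP genes listed, 9 were tested and 2 rose, namely Jdp2 (log2 change 0.80, adjusted p = 0.00886 by edgeR), whose protein pairs with Jun proteins as a repressor, and Atf4 (0.56, adjusted p = 0.00707 by edgeR), a regulator of the stress response. None of the 13 tested kinases upstream of Fos and Jun (of 15 listed) passed in either direction, by edgeR or at an unadjusted p under 0.05. With so few of all genes called, the absence of a call among 13 says little about the kinases. The kinases are known to act by phosphorylation, which these data do not measure.

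Of 16 transcription factors and cofactors of the Fos promoter, 9 were tested and 1 rose, Srf (0.75, adjusted p = 0.0015 by edgeR), which binds the serum response element. Its partner Elk1 had a log2 change of −0.67 with an adjusted p of 0.0572. Of 20 genes described as AP-1 targets, 15 were tested and 2 rose, Nptx2 (1.97, adjusted p = 0.000209 by edgeR), which encodes a secreted pentraxin of excitatory synapses, and Bdnf (1.58, adjusted p = 3.57e-06 by edgeR), a neurotrophin. None of these 4 lists had a member that fell, which says little where 0.126% of all genes were called lower. Their median log2 changes were 0.083, 0.028, −0.085 and 0.028, near that of all genes.

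Genes with a pattern like that of each member were also listed. Over the 12 RNA-seq libraries, the genes most correlated with Fos among 8815 genes in log2(RPM + 1) were Npas4 (r = 0.95), Junb (0.90) and Egr2 (0.84), and those with Junb were Npas4 (0.92), Fos (0.90) and Egr4 (0.90). Fosb had Npas4 (0.87), Junb (0.86) and Fos (0.81). The nearest to Jund were Tbc1d17 (0.97), Ino80e (0.96) and Clk3 (0.95), to Jun Dnajb2 (0.94), Trim62 (0.92) and Tmem11 (0.92), and to Fosl2 Psme3 (0.96), Timp2 (0.95) and Zyx (0.95). Several of these libraries share a culture batch or control and differ in depth, so these are descriptions over 12 points.

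Over the 8 mice, where light itself sets much of the correlation, Fos was nearest to Egr2 (0.99), Dusp1 (0.99) and Arc (0.98). Junb was nearest to Dusp1 (0.99), Fos (0.98) and Egr2 (0.97). Fosb went with Egr4 (0.99) and Egr1 (0.99), Fosl2 with Nfil3 (0.98), Ppp1r3d (0.98) and Phlda1 (0.98), Jun with Ier2 (0.95) and Ncor1 (0.94), and Jund with Errfi1 (0.97), Lingo1 (0.96) and Cep20 (0.95).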

How the data were processed

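The 44 samples were grouped by their labels. 2 ribosome profiling libraries, whose labels contradict themselves on miR-1 and miR-155, stayed in no group. Per the deposited tables and the study's methods, the authors counted RNA-seq reads and RPFs on the reading frame of 1 transcript for each gene without its first 50 nt, and deposited counts with RPM, RPKM and log2 TE values, on mm10 (STAR 2.4.2 and bedtools in the submitters' processing notes). The RPM values of the authors divide by a total larger than the counts on listed genes. For tails, the authors deposited a tag count and the mean or median tail length in nt for each gene, and for the hippocampi a single length that is taken as a median here. Synthetic standards (1.41% to 19.0% of tags) were left out. RNA was poly(A)-selected for the hippocampi and depleted of ribosomal RNA for adult cortex and 6 cultures, which matters for TE and for RNA-seq against TAIL-seq, and this step is not given in the sources used here for the other 3 cultures. The 6 culture samples came in 2 batches of 3 that are not named.

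Light was tested by edgeR 4.0.16 on tags (TMM, filterByExpr) and limma 3.58.1 on mean tails, where the sole model term was light and p-values were adjusted by Benjamini-Hochberg across all genes, and shares by exact permutation tests. Limma's prior degrees of freedom were infinite in the main fit with at least 50 tags, so genes shared 1 standard error there. With at least 20 tags the standard errors differed between genes, and among the members ran from 7.06 nt for Jun to 7.88 nt for Fosl2. The edgeR step was tested on simulated data: of 200 genes changed among 9554, 79% of those changed 2-fold and 92% of those changed 4-fold were recovered, with 9 unchanged genes called. All 6 members are named throughout, with the list genes past the threshold and the 3 genes most correlated with each member (1 of them carried no symbol and is not named, and 1 is not reported here). The members and lists were chosen with earlier results of these data known. Sequences came from RefSeq tables and the genome of GRCm38.p6 (pysam 0.24.0), and 17010 of 17158 identifiers carried a symbol. Alternatives used DESeq2 1.42.0, other filters, scalings and tag minimums, and left out each mouse in turn.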

Additional observations from a re-analysis of the deposited data

Results flagged for a closer look

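In the light mice, the mean tail of Junb was 86.7 nt in the third mouse against 70.6 to 73.1 nt in the other 3, far from them by Dixon's test. It was 1 such case among 80 groups of 4 mice examined, where chance gives about 1 in 20. The difference from the dark mice (114 to 122 nt) held in that mouse as well.

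The 2 ribosome profiling libraries that the labels put in no group held RPFs of Fos, Fosb and Junb above the level in the GFP culture, in CPM (RPFs per 1000000 RPFs on genes). The first, with 817114 RPFs, had 165 for Fos, 62.4 for Fosb, 125 for Jun and 249.7 for Junb, against 69.5, 26.4, 79.0 and 108 in the GFP culture. The second, with 6428048 RPFs, had 135 for Fos, 73.1 for Fosb, 91.0 for Jun and 214 for Junb, and for Jun the counting interval of its ratio to GFP, 0.988 to 1.35, included 1. Each is 1 library with an unsettled label, so these values were not tested.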

How the results depend on the processing

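Of 442 alternatives for 143 values, 416 kept direction and side of the threshold, or stayed within the replicate spread or, for counts, near the main count. A count of 192 genes against 128 was among those kept. Of the rest, 17 moved, 3 gained and 5 lost a call, and 1 reversed. Leaving out 1 mouse each, genes changed in tags numbered 100 to 150 against 128, and members changed 4 (without the third light mouse) to 6 (without the fourth). Without a filter there were 192 genes and 6 members. DESeq2 gave 126 genes and 4 members. The mouse numbers share no litter or day in the labels, and same-numbered mice did not deviate together (r = 0.031, −0.196, −0.0997 and −0.0892). With the replicate block, 113 genes and 5 members were called in tags and 0 members in tails.

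Members changed in tail numbered 1 with at least 20 tags and 1 with at least 10 (an alternative chosen after the data were seen), and 0 to 2 without 1 mouse each, with 2 (Fos and Junb) without the first dark mouse. The family's ratio of light to dark was 2.95 to 3.95 without 1 mouse each, highest without the fourth dark mouse (added after seeing the data). With the Fos and Jun subfamilies as separate pools, the share of Fosl2 changed by −20.7 percentage points instead of 5.51, those of Fos, Fosb and Jund lost their separation (15.98, 4.71 and −23.4 points) and that of Junb gained it (29.5 points). After 10 min of KCl, members called in RNA-seq numbered 1 with at least 50 reads and 0 by TAIL-seq tags, and in ribosome profiling 1 on the authors' RPM. Fos was not called in any of these 3 settings. With at least 20 tags, members with longer tails numbered 2 after either time of KCl, where 405 of 5282 genes (10 min) and 558 of 5678 (30 min) were called. The causes were not tested.

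Depth limited Fosb, with at most 31 RNA-seq reads in any culture, the RNA-seq of the GFP culture, with at most 67 reads on a member, and the hippocampal tail libraries.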
